A study of Sus scrofa with 12 samples.

Results

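The insulin-like growth factor (IGF) genes followed here were chosen by name. They were the ligands IGF1 and IGF2, the receptor gene IGF1R and the binding protein genes IGFBP2 to IGFBP7, and 7 of these 9 names were found among the 22861 genes of the deposited gene table. IGF2 and IGFBP2 were not analysed here. The RNA came from 12 cultures of interstitial cells from the aortic valve of the pig (Sus scrofa), fibroblast-like cells that build and maintain the valve leaflet. All cultures were grown in DMEM on glass, which the labels name as the stimulus for calcification. The groups, of 3 biological replicates each, were Stage 1 (day 5), Stage 2 (day 8), Stage 3 given KPT and Stage 3 given DMSO, a solvent commonly used as vehicle. Growth lasted up to 12 days, but the sources used here tie no day to the Stage 3 libraries and do not give the dose or duration of KPT or spell out what KPT is. No Stage 3 group without DMSO or KPT was among the samples used here, so Stage 3+DMSO differed from Stage 2 in stage and in DMSO, and the parts of stage and DMSO cannot be told apart. The origin of the replicates, from 1 animal or several, is not stated, and the p-values therefore cover only the spread among these cultures.

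IGF1 is a secreted growth factor that acts through the receptor tyrosine kinase IGF1R. Most IGF outside cells is held by binding proteins, which block or deliver the ligand until proteases cut them. IGFBP3 to IGFBP6 bind IGFs tightly, and IGFBP7 binds them weakly and is mostly known as an extracellular matrix protein. In fibroblast-like cells IGF1 is known for promoting growth and matrix production.

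Recovered library totals were 13188023 to 24724019. Levels are RPKM, read counts divided by exon length and library size, so genes can be compared per length, and fold changes are log2 differences of RPKM + 1. A gene was called at an adjusted p under 0.05 (limma, Benjamini-Hochberg over 13046 genes). Replicates within a group correlated at 0.985 to 0.994. Stage 3+DMSO replicate 1 stood apart from its group: chi-square per degree of freedom over read counts was 39.8 and 46.2 in its pairs, against 5.82 to 26.3 in the other pairs. All 7 valve interstitial markers passed the filter on low values, against 2 of 6 endothelial and 2 of 7 leukocyte markers found, and no cardiomyocyte, adipocyte, epithelial or erythroid marker passed. The median fold change of all genes was 0.15 in Stage 3+DMSO against Stage 2, and 74.9% of called genes were higher. After rescaling each library by its median ratio these were 0.01 and 50.7%. Against Stage 1 the median was 0.10 with 63.8% of called genes higher, and 48.0% after rescaling.

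The ligand, IGF1, differed between every pair of groups. The gene spans chromosome 5, 85700101 to 85774105 on the plus strand, in the coordinates of the deposited table, for which the sources used here name no build. IGF1 had 51.9, 46.9 and 49.9 RPKM in the Stage 1 libraries. In the Stage 2 libraries it had 96.7, 118 and 132 RPKM. In the Stage 3+KPT libraries it had 164, 157 and 166 RPKM, and in the Stage 3+DMSO libraries 29.9, 22.8 and 33.0 RPKM. No library of any group overlapped another group, and the order from high to low was Stage 3+KPT, Stage 2, Stage 1 and Stage 3+DMSO. Lack of overlap in a single comparison was common among the 13046 tested genes. It held for 6846 in Stage 2 against Stage 1, 6663 in Stage 3+DMSO against Stage 2 and 8504 in Stage 3+KPT against Stage 3+DMSO. Against Stage 1 it held for 7691 in Stage 3+DMSO and 9582 in Stage 3+KPT, and for 9149 in Stage 3+KPT against Stage 2. In Stage 2 IGF1 rose 2.33-fold over Stage 1 (log2 fold change 1.19, SE 0.13, adjusted p = 1.95e-05). It fell in Stage 3+DMSO to 0.247 of its Stage 2 level (log2 fold change -1.98, SE 0.13, adjusted p = 2.65e-07) and was also lower than in Stage 1 (-0.79, adjusted p = 2.62e-04). With KPT the level was 5.68 times that with DMSO (2.48, SE 0.13, adjusted p = 4.39e-09). It was also 1.40 times the Stage 2 level (0.50, adjusted p = 0.00367), beside a median fold change of 0.18 over all tested genes. Without Stage 3+DMSO replicate 1 the fold change between KPT and DMSO was 2.52.

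The receptor gene, IGF1R, did not pass the test in any pair of groups. It lies on chromosome 1, 153514790 to 153853782 on the minus strand. IGF1R had 22.3, 21.2 and 21.7 RPKM in Stage 1, 21.9, 20.7 and 19.4 RPKM in Stage 2, 21.7, 21.1 and 21.7 RPKM in Stage 3+KPT, and 20.9, 20.6 and 20.6 RPKM in Stage 3+DMSO. The largest group mean was 21.7 ± 0.56 RPKM and the smallest 20.7 ± 1.23 RPKM (SD, n = 3 each), with at least 15014 reads behind each group. The 95% interval of the fold change was -0.09 to 0.19 for Stage 3+KPT against Stage 3+DMSO, and -0.21 to 0.07 for Stage 2 against Stage 1. For Stage 3+DMSO against Stage 2 it was -0.14 to 0.15, and the fold change was -0.16 after median-ratio rescaling (adjusted p = 0.105).

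**Figure D1:**
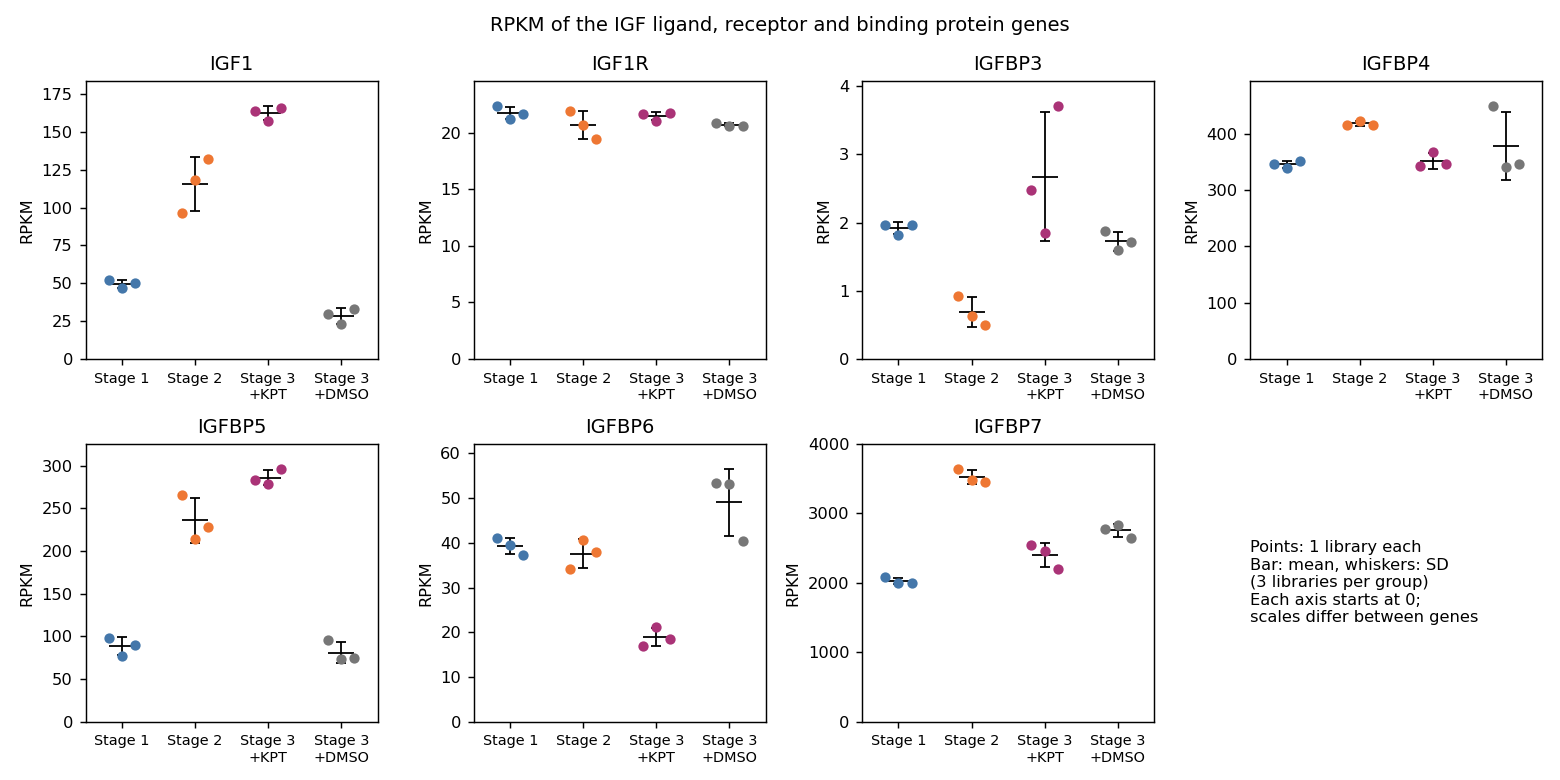
RPKM (vertical axes, each from 0) of the 7 genes in the 4 groups, with 1 point per library, a bar at the mean and whiskers of 1 SD (n = 3). IGF1 and IGFBP5 share a high Stage 2 and Stage 3+KPT and a low Stage 1 and Stage 3+DMSO, while IGF1R lies between 19.4 and 22.3 RPKM throughout.

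Of the binding proteins that hold IGFs tightly, IGFBP5 had the same order of group means as IGF1. IGFBP5, a matrix-associated binding protein, lies on chromosome 15, 131680310 to 131684630 on the minus strand. It had 98.5, 77.1 and 90.3 RPKM in Stage 1 and 266, 214 and 228 RPKM in Stage 2. With KPT it had 283, 279 and 296 RPKM, and with DMSO 95.7, 73.0 and 74.6 RPKM. The Stage 2 and Stage 3+KPT libraries all lay above the Stage 1 and Stage 3+DMSO libraries, which overlapped each other. IGFBP5 rose in Stage 2 over Stage 1 (log2 fold change 1.40, SE 0.11, adjusted p = 3.52e-06) and fell in Stage 3+DMSO against Stage 2 (-1.53, SE 0.11, adjusted p = 8.76e-07). It rose with KPT over DMSO (1.82, SE 0.11, adjusted p = 3.12e-08). Stage 3+DMSO against Stage 1 did not pass the test (-0.13, 95% interval -0.38 to 0.12). The difference between KPT and Stage 2 was small (0.28, adjusted p = 0.0438), beside a median of 0.18 over all tested genes. No alternative processing was run for this pair of groups.

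IGFBP6, a binding protein known for preferring IGF2 over IGF1, was lower with KPT than in any other group. It lies on chromosome 5, 18768002 to 18772057 on the plus strand. IGFBP6 had 17.0, 21.2 and 18.6 RPKM in Stage 3+KPT, against 53.4, 53.2 and 40.4 RPKM in Stage 3+DMSO. The Stage 1 libraries had 41.0, 39.6 and 37.3 RPKM and the Stage 2 libraries 34.1, 40.6 and 37.9 RPKM. IGFBP6 fell with KPT against DMSO (-1.32, SE 0.11, adjusted p = 5.46e-07), and KPT was below Stage 2 (-0.95, adjusted p = 8.45e-06) and Stage 1 (-1.02, adjusted p = 4.42e-06). It was called higher in Stage 3+DMSO against Stage 2 (0.37, adjusted p = 0.0185). The call held in 10 of 16 alternatives. It was lost without Stage 2 replicate 1, Stage 3+DMSO replicate 1 or Stage 3+DMSO replicate 2 (0.30 each, adjusted p = 0.0655 to 0.0751), after median-ratio rescaling (0.20, adjusted p = 0.163) or quantile normalization (0.22, adjusted p = 0.149), and in a fit of these groups alone (adjusted p = 0.0510). Stage 3+DMSO against Stage 1 (0.30, adjusted p = 0.0424) was called in only 6 of 16 alternatives, and was lost without any Stage 1 replicate in turn and without Stage 3+DMSO replicate 1 or 2 (0.24 to 0.33). Stage 2 against Stage 1 did not pass the test (-0.07, 95% interval -0.31 to 0.18).

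IGFBP4, an inhibitory binding protein that the protease PAPPA cuts, changed least among the binding proteins of high level. It lies on chromosome 12, 22275243 to 22290067 on the minus strand. IGFBP4 had 346, 339 and 351 RPKM in Stage 1 and 415, 423 and 415 RPKM in Stage 2. With KPT it had 342, 367 and 346 RPKM, and with DMSO 448, 340 and 346 RPKM. The Stage 2 libraries lay above all libraries of the other groups except Stage 3+DMSO replicate 1. It rose slightly in Stage 2 over Stage 1 (0.27, SE 0.09, adjusted p = 0.0235). Of 16 alternatives, 11 kept this call. It did not pass with quantile normalization (0.22, adjusted p = 0.0636), nor without Stage 1 replicate 1 or 2 or Stage 2 replicate 2 or 3 (adjusted p = 0.0515 to 0.0706). Stage 3+DMSO against Stage 2 was -0.16 (adjusted p = 0.165) with all libraries and -0.28 (adjusted p = 7.98e-04) without Stage 3+DMSO replicate 1. KPT against DMSO did not pass the test (-0.09, 95% interval -0.28 to 0.09).

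IGFBP3, the main IGF carrier in blood, was close to the filter on low values in these libraries. It lies on chromosome 18, 54851504 to 54856012 on the plus strand. Its level was read over only 3 exon rows, 808 bases in all, which averaged 0.52, 3.78 and 1.42 RPKM in Stage 1. Whether these rows cover the whole transcript was not tested, so its level beside other genes is uncertain. IGFBP3 had 1.97, 1.82 and 1.97 RPKM in Stage 1 and 0.925, 0.632 and 0.499 RPKM in Stage 2. It had 2.47, 1.84 and 3.70 RPKM in Stage 3+KPT and 1.87, 1.60 and 1.71 RPKM in Stage 3+DMSO. Stage 2 stood below all the other libraries, with 29 reads over the group against 83 in Stage 1, 135 in Stage 3+KPT and 85 in Stage 3+DMSO. It fell in Stage 2 against Stage 1 (-0.80, SE 0.17, adjusted p = 0.00296) and rose in Stage 3+DMSO against Stage 2 (0.70, SE 0.17, adjusted p = 0.00591). KPT against DMSO did not pass the test (0.40, adjusted p = 0.0643) with all libraries, but did without Stage 3+KPT replicate 2 (0.57, adjusted p = 0.0132). IGFBP1, the neighbouring binding protein gene that starts 5832 bases past the end of IGFBP3, had 0 reads in all 12 libraries.

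IGFBP7 had the highest level of all members in every library. It lies on chromosome 8, 59064675 to 59139438 on the minus strand. IGFBP7 had 2080, 1998 and 1998 RPKM in Stage 1 and 3639, 3480 and 3454 RPKM in Stage 2. With KPT it had 2539, 2457 and 2204 RPKM, and with DMSO 2779, 2837 and 2647 RPKM. The 4 groups did not overlap, which in a single comparison held for 6663 to 9582 of the 13046 tested genes. IGFBP7 rose in Stage 2 over Stage 1 (0.80, SE 0.06, adjusted p = 2.51e-06) and fell in Stage 3+DMSO against Stage 2 (-0.36, SE 0.06, adjusted p = 6.14e-04). Stage 3+DMSO was above Stage 1 (0.44, adjusted p = 9.37e-05). KPT was called lower than DMSO (-0.20, SE 0.06, adjusted p = 0.0142), but the value was 0.048 (adjusted p = 0.492) after quantile normalization. The call held in 12 of 16 alternatives. It was also lost without Stage 3+DMSO replicate 2 (-0.18, adjusted p = 0.0515), without Stage 3+KPT replicate 3 (-0.14, adjusted p = 0.0568) and in a fit of these groups alone (adjusted p = 0.0795).

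Counted together, 5 of the 7 members were called in Stage 2 against Stage 1, where 40.7% of all tested genes were called. These were 4 higher and 1 lower, beside 16.3% of all genes called higher and 24.4% called lower. For Stage 3+DMSO against Stage 2, 2 were called higher and 3 lower, where 44.1% of all genes were called, 33% higher and 11.1% lower. For Stage 3+DMSO against Stage 1, 2 were called higher and 1 lower, where 47.7% were called, 30.5% higher and 17.3% lower. With KPT against DMSO, 2 were called higher and 2 lower, where 60% were called, 30.5% higher and 29.5% lower. The members' count was above the background share in Stage 2 against Stage 1 and in Stage 3+DMSO against Stage 2. In the other comparisons it was near that share, and none of this was tested. The members were chosen with earlier results of these data known, and the comparisons with a high count both use the Stage 2 libraries. These counts are therefore neither free of that choice nor independent of each other. The members' median fold changes in these 4 comparisons were 0.27, -0.16, -0.07 and 0.05, beside -0.05, 0.15, 0.10 and 0.02 over all tested genes.

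The change over the second step, from Stage 2 to Stage 3+DMSO, was also set against the change over the first, from Stage 1 to Stage 2, as a contrast of its own. The second minus the first was -3.18 for IGF1 (adjusted p = 9.68e-07), -2.94 for IGFBP5 (adjusted p = 7.89e-07), -1.15 for IGFBP7 (adjusted p = 8.63e-06) and -0.43 for IGFBP4 (adjusted p = 0.0388). It was 1.50 for IGFBP3 (adjusted p = 0.00193). IGFBP6 and IGF1R did not pass this test. The 5 members called were 1 higher and 4 lower, where 38.4% of all genes were called, 27.6% higher and 10.8% lower. Since Stage 2 enters both steps, a high or low Stage 2 moves this contrast by its construction.

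**Figure D2:**
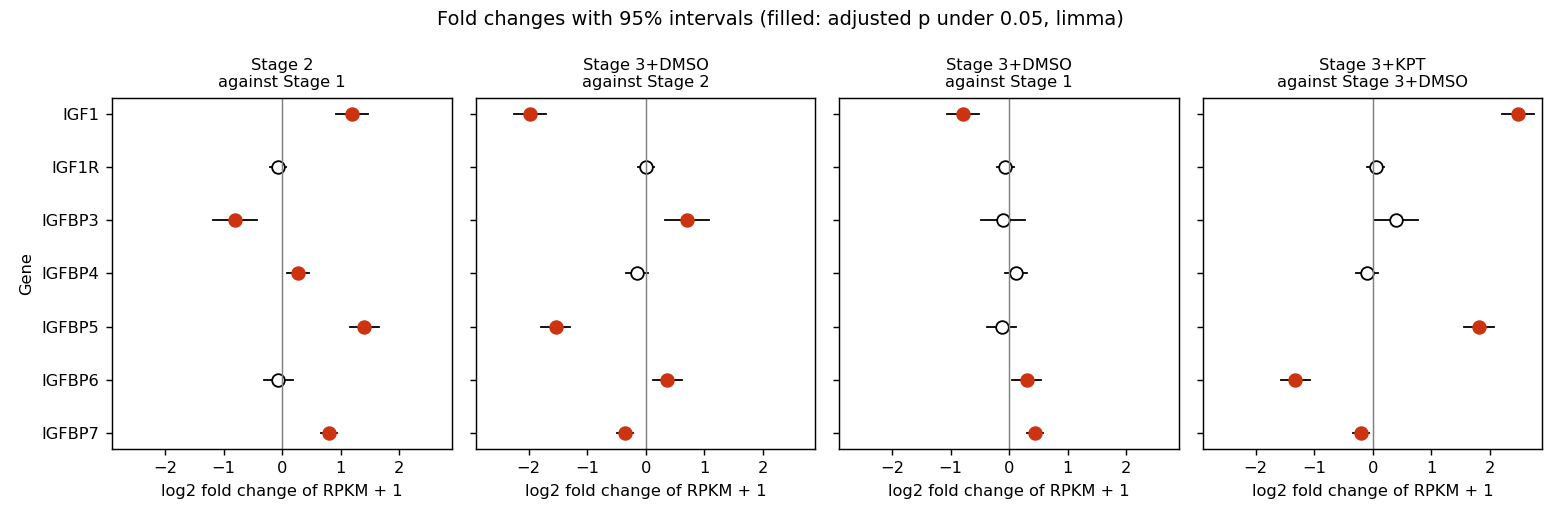
Fold changes (horizontal axes, log2 of RPKM + 1) of the 7 genes (rows) in the 4 comparisons, with 95% intervals; filled points had an adjusted p under 0.05 in limma. IGF1 is at 2.48 and IGFBP6 at -1.32 in Stage 3+KPT against Stage 3+DMSO, and the intervals of IGF1R include 0 in all 4 comparisons.

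The KPT comparison came with a change in the cell markers. The summed level of the 7 valve interstitial markers was 13640 to 14421 RPKM with KPT, against 25301 to 28028 RPKM with DMSO. The 6 endothelial markers summed to 6.78 to 9.49 RPKM with KPT, against 11.7 to 16.1 RPKM with DMSO, and the 7 leukocyte markers, of which 1 was at 0 in every library, to 12.9 to 14.9 RPKM, against 14.4 to 15.2 RPKM. For Stage 2 the valve interstitial sum was 27270 to 28245 RPKM, against 20011 to 20918 RPKM in Stage 1. The sums are unweighted, so they lean on the markers of highest level, and single markers are not given here. The part of these shifts in the IGF results was not tested, and in bulk RNA fewer cells of a type and less RNA per cell cannot be told apart.

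Because RPKM is per exon length, the binding proteins could be summed within each library. IGFBP7 held 81.0 ± 0.39% of the summed RPKM of IGFBP3 to IGFBP7 in Stage 1, 83.6 ± 0.09% in Stage 2, 78.4 ± 1.46% in Stage 3+KPT and 84.4 ± 1.89% in Stage 3+DMSO (SD, n = 3 each). A second sum without IGFBP7 was added after the data had been seen. In that sum IGFBP4 and IGFBP5 together made up most of the transcripts in every library, in group-dependent proportions. IGFBP5 held 44.0, 41.7 and 44.6% with KPT, against 16.0, 15.6 and 16.1% with DMSO. In Stage 2 its share was 37.1, 31.6 and 33.4%, against 20.2, 16.9 and 18.8% in Stage 1. The share of IGFBP4 was 53.3 ± 1.41% with KPT and 74.1 ± 1.20% with DMSO, and 60.4 ± 2.21% in Stage 2 and 72.7 ± 1.56% in Stage 1. IGFBP6 held 2.87 ± 0.27% with KPT and 9.68 ± 1.47% with DMSO.

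IGF1 was set against the same pool. Its RPKM was 10.4 ± 0.20% of the summed IGFBP3 to IGFBP6 in Stage 1, 16.7 ± 2.97% in Stage 2, 24.6 ± 1.00% in Stage 3+KPT and 5.67 ± 1.28% in Stage 3+DMSO. For these shares of IGFBP5 and IGF1, KPT and DMSO did not overlap, nor did Stage 2 and Stage 1 (two-sided exact permutation p = 0.1 each, the smallest that 3 libraries against 3 allow). None of the 44 share tests run could go below this value. The sums hold RNA levels of the members analysed here, not protein. The IGF1 level is averaged over 2318 bases of exon, which were unevenly covered. In Stage 1 the gene averaged 49.5 RPKM, a 295-base exon row 0.25 RPKM and a 157-base exon 142 RPKM. The size of these percentages therefore depends on which exon rows are listed for each gene, and they are given for comparison between groups.

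**Figure D3:**
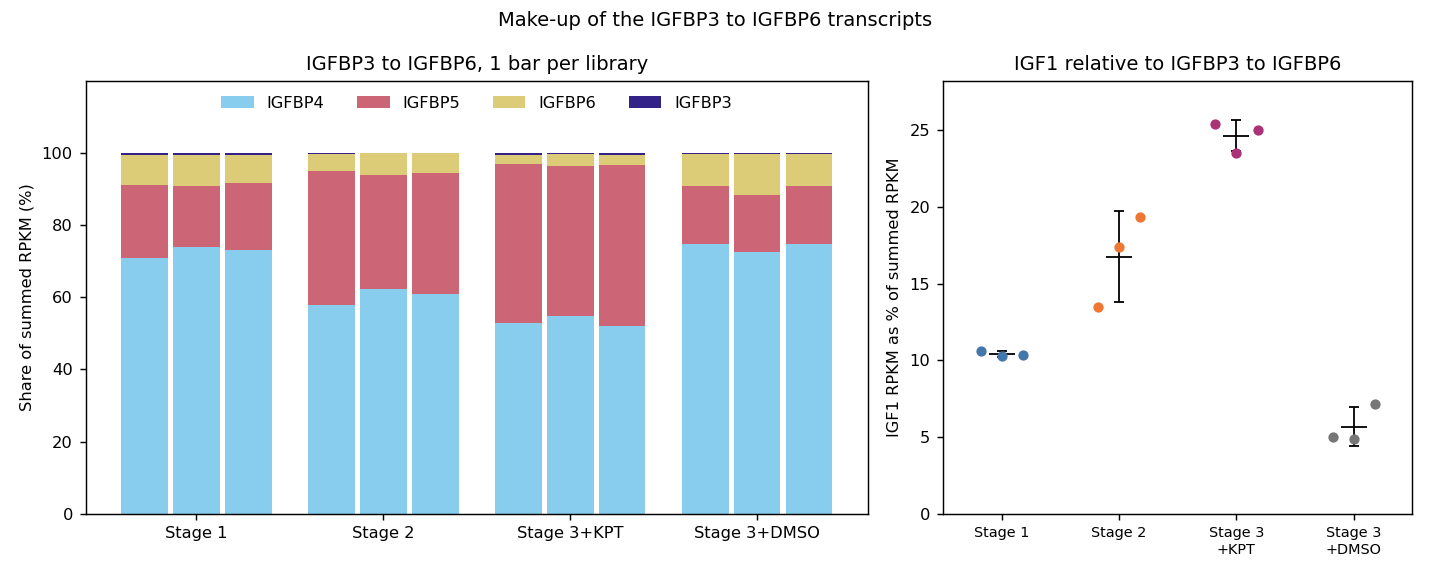
Left, share (%) of IGFBP4, IGFBP5, IGFBP6 and IGFBP3 in their summed RPKM, 1 bar per library; right, IGF1 RPKM as a percentage of that sum, with 1 point per library, the mean and 1 SD. The IGFBP5 share is 41.7 to 44.6% in Stage 3+KPT and 15.6 to 16.1% in Stage 3+DMSO.

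The exon table showed that IGF1 changed in make-up as well as in level. In mammals IGF1 has alternative leader exons, each with its own promoter and spliced to a shared downstream exon. In the pig table, several overlapping exon rows end at base 85700783 on chromosome 5, of which the innermost covers the 82 bases from 85700702. A separate exon of 90 bases follows at 85702515 to 85702604, and a well-covered exon of 157 bases at 85705320 to 85705476. The table does not say to which transcript each row belongs. These rows were chosen for closer reading after their values had been seen.

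The 90-base exon had 14.3, 2.26 and 11.3 RPKM in Stage 1 and 31.7, 44.8 and 58.3 RPKM in Stage 2. It had 105, 117 and 118 RPKM in Stage 3+KPT and 2.24, 1.66 and 5.83 RPKM in Stage 3+DMSO. This rests on 42 reads in Stage 1, 225 in Stage 2, 629 in Stage 3+KPT and 18 in Stage 3+DMSO. As a percentage of the 82-base row it stood at 33.0, 38.1 and 33.0% with KPT, against 2.96, 3.14 and 7.37% with DMSO. In Stage 2 it was 22.9, 17.5 and 19.7%, against 12.2, 2.18 and 9.07% in Stage 1. KPT did not overlap DMSO, and Stage 2 did not overlap Stage 1 (two-sided exact permutation p = 0.1 each, the smallest possible).

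Relative use of each exon within its gene was then tested in limma with Benjamini-Hochberg adjustment. The test covered 118798 distinct exon rows with at least 1 RPKM in at least 3 libraries, in genes with more than 1 such row. Overlapping rows of IGF1 share reads, and the test counted each as a separate exon, which its p-values do not allow for. With KPT against DMSO the 90-base exon rose 2.43 on the log2 scale beyond the other exons of IGF1 (adjusted p = 7.03e-10), in a comparison where 0.966% of exon rows were called. It fell by 1.63 in Stage 3+DMSO against Stage 2 (adjusted p = 3.53e-04), with 0.427% called. In Stage 2 against Stage 1 the value was 1.32 (adjusted p = 0.0107), with 0.402% called, and it was 0.66 (adjusted p = 0.956) without Stage 1 replicate 2, whose exon held 4 reads. The call was also lost without Stage 2 replicate 2 (adjusted p = 0.0553) or 3 (adjusted p = 0.0509). Stage 3+DMSO against Stage 1 did not pass the test (-0.31), with 0.422% of exon rows called. The value with KPT against DMSO was 2.23 (adjusted p = 2.31e-06) without Stage 3+DMSO replicate 1. A 131-base row at 85700101 to 85700231 was also called in Stage 3+DMSO against Stage 2 (1.61, adjusted p = 4.35e-04), on 5 reads against 12, where the added pseudocount of 1 sets the value.

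The 82-base row itself tracked the body of the gene more closely. Relative to the downstream 157-base exon it was 69.8 ± 4.79% with KPT and 90.6 ± 11.5% with DMSO, and 69.8 ± 17.2% in Stage 2 and 81.1 ± 3.80% in Stage 1. Over the same exon the 90-base row was 24.2 ± 0.42% with KPT and 3.89 ± 1.63% with DMSO. The exons of the other members held no such call, other than a 259-base row of IGFBP7 at 59064675 to 59064933 on chromosome 8, with a relative change of 0.42 with KPT against DMSO (adjusted p = 0.0383).

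**Figure D4:**
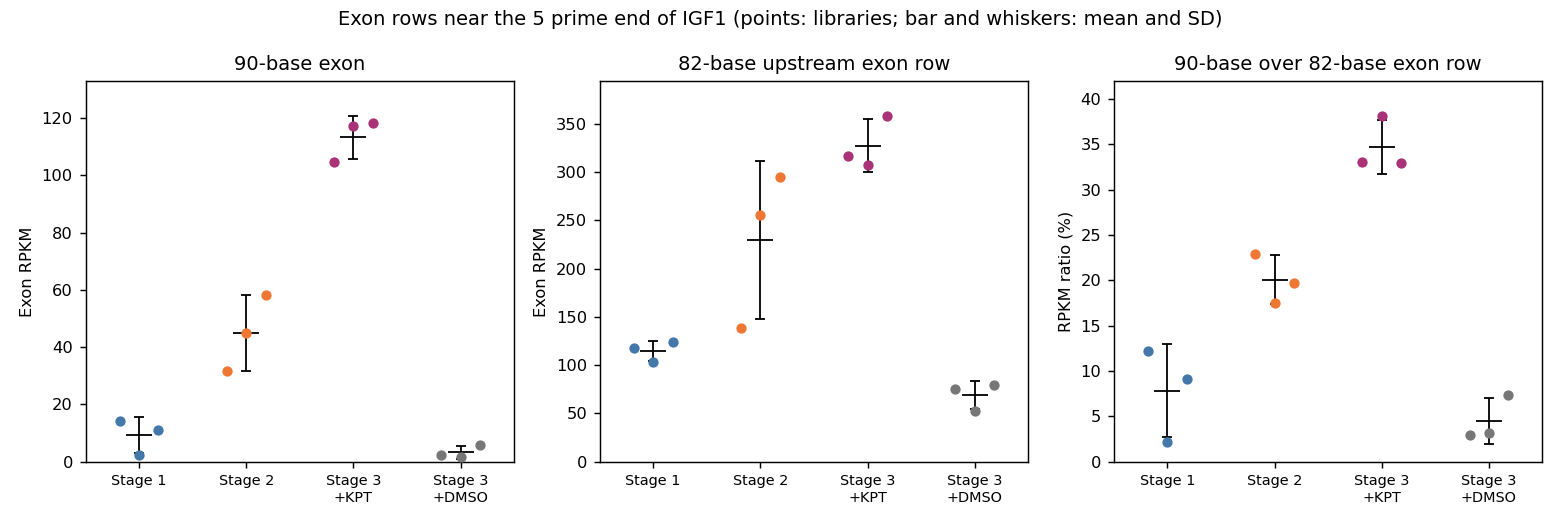
Left and centre, RPKM of the 90-base exon and of the 82-base row of IGF1; right, the first as a percentage of the second. Points are libraries, with the mean and 1 SD (n = 3); the percentage is 33.0 to 38.1% in Stage 3+KPT and 2.96 to 7.37% in Stage 3+DMSO.

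Of 57 further names of the IGF pathway, 51 were found and 42 passed the filter. In Stage 2 against Stage 1, 8 were called higher and 10 lower, but 10 and 8 after median-ratio rescaling. For Stage 3+DMSO against Stage 2, 16 were called higher and 4 lower, but 12 and 9 after median-ratio rescaling. For Stage 3+DMSO against Stage 1 the counts were 14 higher and 5 lower, and in Stage 3+KPT against Stage 3+DMSO 10 higher and 20 lower. Of the 42 genes, 18, 20, 19 and 30 were thus called in these 4 comparisons, where 40.7%, 44.1%, 47.7% and 60% of all tested genes were called. The median fold changes were -0.05, 0.21, 0.12 and -0.31 in the same order of comparisons.

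Among the proteases of the binding proteins and their inhibitors, 5 genes were tested. PAPPA, the secreted protease that cuts IGFBP4 and IGFBP5, had 2.33, 2.92 and 3.14 RPKM in Stage 1, 10.8, 9.88 and 8.25 RPKM in Stage 2, 23.4, 18.99 and 22.7 RPKM in Stage 3+KPT and 7.34, 4.70 and 6.41 RPKM in Stage 3+DMSO. None of these groups overlapped, which in a single comparison held for 6663 to 9582 of the 13046 tested genes. PAPPA rose in Stage 2 over Stage 1 (1.49, adjusted p = 1.50e-05), fell in Stage 3+DMSO against Stage 2 (-0.59, adjusted p = 0.00764) and rose with KPT over DMSO (1.68, adjusted p = 9.50e-07).

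STC2, a stanniocalcin known to inhibit PAPPA, had 32.5, 32.5 and 31.9 RPKM in Stage 1, 17.1, 15.6 and 13.8 RPKM in Stage 2, 15.3, 14.6 and 14.4 RPKM in Stage 3+KPT and 40.7, 35.9 and 33.1 RPKM in Stage 3+DMSO. It was lowest in Stage 2 and with KPT, the groups where IGF1 and PAPPA were highest. STC2 fell in Stage 2 against Stage 1 (-1.02, adjusted p = 5.19e-06), rose in Stage 3+DMSO against Stage 2 (1.19, adjusted p = 9.85e-07) and fell with KPT against DMSO (-1.25, adjusted p = 1.11e-07). KPT against Stage 2 did not pass the test (-0.06, 95% interval -0.25 to 0.14). PAPPA2 and STC1, the related protease and inhibitor, did not pass the filter and reached at most 0.309 RPKM in any library.

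The other proteases did not follow that order. HTRA1, a secreted serine protease that can cut IGFBP5, averaged 1813 ± 86.1 RPKM with KPT and 2283 ± 213 RPKM with DMSO, and 2229 ± 73.2 RPKM in Stage 2 and 1291 ± 11.4 RPKM in Stage 1. It rose in Stage 2 over Stage 1 (0.79, adjusted p = 4.96e-06) and fell with KPT against DMSO (-0.33, adjusted p = 0.00120). ADAM12, a metalloprotease reported to cut IGFBP3 and IGFBP5, averaged 25.8 ± 1.40 RPKM with KPT and 66.9 ± 7.48 RPKM with DMSO, and 116 ± 5.51 RPKM in Stage 2 and 82.2 ± 1.47 RPKM in Stage 1. ADAM12 fell with KPT (-1.34, adjusted p = 1.32e-08) and in Stage 3+DMSO against Stage 2 (-0.79, adjusted p = 7.28e-06), and rose in Stage 2 over Stage 1 (0.49, adjusted p = 3.24e-04). HTRA3, a relative of HTRA1, also fell with KPT (-0.86, adjusted p = 5.69e-07).

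Of the other receptors and carriers, IGF2R, which takes up IGF2 for breakdown, had 82.7, 88.6 and 98.7 RPKM with KPT, against 65.5, 68.4 and 73.9 RPKM with DMSO. In Stage 2 it had 36.9, 32.2 and 31.2 RPKM, against 37.9, 36.5 and 33.7 RPKM in Stage 1. IGF2R rose in Stage 3+DMSO over Stage 2 (1.03, adjusted p = 2.11e-06) and with KPT over DMSO (0.37, adjusted p = 0.00242), while Stage 2 against Stage 1 did not pass the test (-0.11). The insulin receptor gene INSR, listed under 2 gene IDs of which the better covered is given, rose in Stage 3+DMSO over Stage 2 (0.77, adjusted p = 0.00479). IGFALS, which encodes the acid-labile subunit of the circulating IGF complex, passed the filter but reached at most 1.37 RPKM in any library. It was called lower in Stage 2 against Stage 1 (-0.52, adjusted p = 0.0130), which held in 13 of 15 alternatives. It was called higher in Stage 3+DMSO against Stage 2 (0.46, adjusted p = 0.0212), which held in 12 of 15.

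The growth hormone receptor gene GHR, whose signal drives IGF1 production in liver, took a different course from IGF1. GHR had 2.70, 1.70 and 2.96 RPKM in Stage 1, 5.09, 7.16 and 7.81 RPKM in Stage 2, 5.12, 4.95 and 3.40 RPKM in Stage 3+KPT and 18.9, 17.0 and 17.8 RPKM in Stage 3+DMSO. It was highest in Stage 3+DMSO, where IGF1 was lowest. GHR rose at both steps (1.16, adjusted p = 3.16e-04 for Stage 2 over Stage 1, and 1.32, adjusted p = 9.92e-05 for Stage 3+DMSO over Stage 2) and fell with KPT against DMSO (-1.80, adjusted p = 2.39e-06). STAT5A, a transcription factor of that receptor, fell with KPT (-0.43, adjusted p = 2.03e-04). It is listed under 3 gene IDs, of which the one of highest mean RPKM is given.

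**Figure D5:**
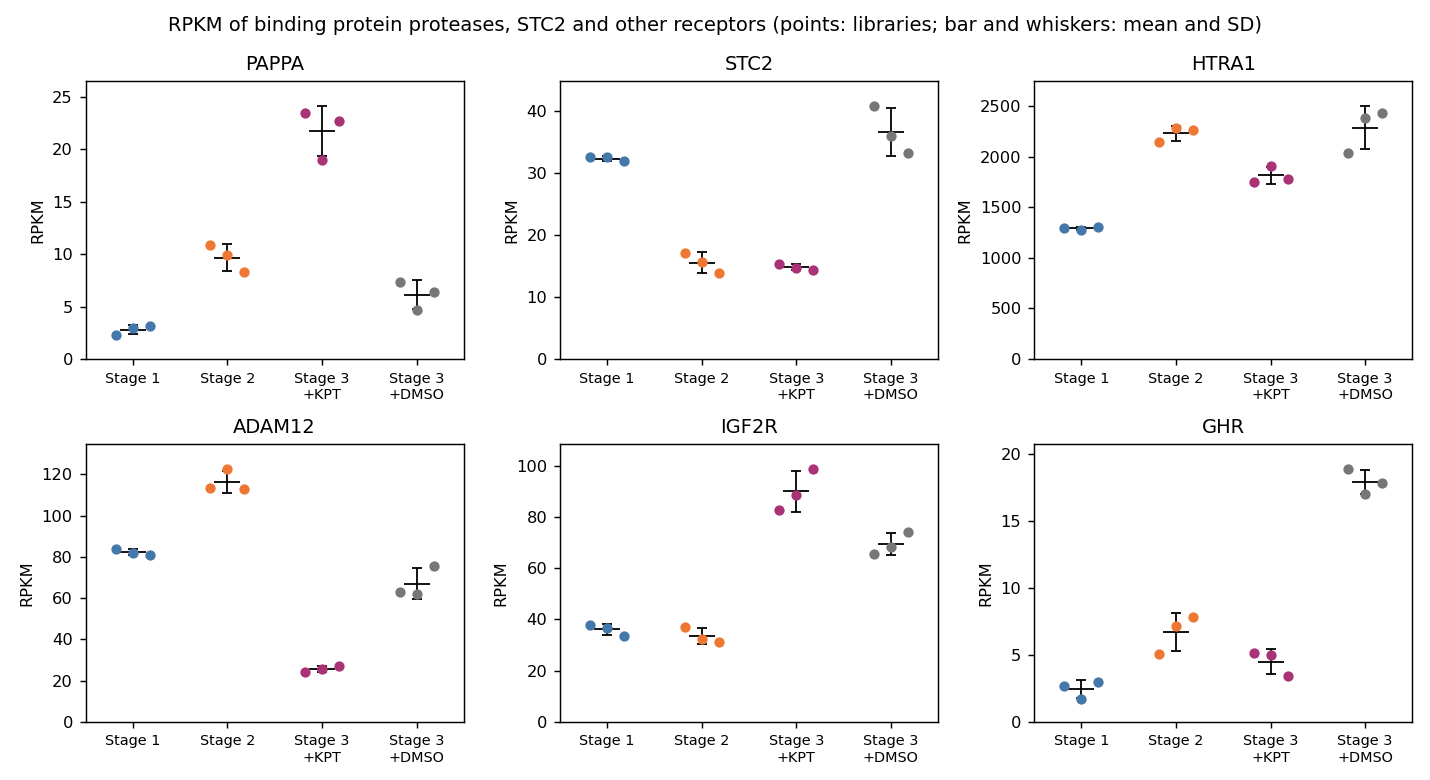
RPKM (vertical axes, each from 0) of 3 proteases, the PAPPA inhibitor STC2 and the receptors IGF2R and GHR, with 1 point per library, the mean and 1 SD. PAPPA spans 18.99 to 23.4 RPKM and STC2 14.4 to 15.3 RPKM in Stage 3+KPT, against 4.70 to 7.34 and 33.1 to 40.7 RPKM in Stage 3+DMSO.

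Of the 9 adaptor and feedback genes tested, 2 rose and 6 fell with KPT against DMSO, and 5 rose and 0 fell in Stage 3+DMSO against Stage 2 (5 and 1 after either rescaling). Among all tested genes, 30.5% were called higher and 29.5% lower with KPT against DMSO, and 33% higher and 11.1% lower in Stage 3+DMSO against Stage 2. The adaptors GRB10 and GRB14, which bind the insulin and IGF1 receptors and dampen their signal, fell with KPT by 1.11 (adjusted p = 1.14e-07) and 1.66 (adjusted p = 6.28e-07) on the log2 scale. SOCS2, a feedback inhibitor of growth hormone signalling, fell by 0.91 (adjusted p = 4.15e-04). PHLDA2, an imprinted growth-restraining gene, went the other way and rose with KPT over DMSO (0.77, adjusted p = 0.00182). IRS1, the docking protein of both receptors, averaged 5.16 ± 0.07 RPKM with KPT and 8.20 ± 0.40 RPKM with DMSO (-0.58, adjusted p = 1.18e-04). GRB10 (0.90, adjusted p = 3.56e-06), SOCS2 (0.92, adjusted p = 7.55e-04) and PHLDA2 (1.12, adjusted p = 2.43e-04), rose in Stage 3+DMSO over Stage 2. IRS2, a relative of IRS1, was not analysed here. In Stage 2 against Stage 1, PHLDA2 (-1.14, adjusted p = 2.63e-04) and GRB10 (-0.38, adjusted p = 0.00239) fell.

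Of the 20 genes of the signal chain below the receptor, 6 rose and 7 fell with KPT against DMSO (8 and 6 after quantile normalization), near the 30.5% called higher and 29.5% called lower among all genes. FOXO1, a transcription factor that AKT keeps out of the nucleus, averaged 31.9 ± 0.57 RPKM with KPT and 15.0 ± 2.57 RPKM with DMSO (1.05, adjusted p = 2.75e-06), while its relative FOXO3 fell (-0.84, adjusted p = 4.51e-05). EIF4EBP1, which restrains translation until mTOR acts on it, averaged 119 ± 9.89 RPKM with KPT and 264 ± 15.1 RPKM with DMSO (-1.14, adjusted p = 3.13e-07). FOXO1 (0.66, adjusted p = 3.30e-04) and FOXO3 (0.57, adjusted p = 0.00174) rose in Stage 3+DMSO over Stage 2. In Stage 2 against Stage 1, EIF4EBP1 (-0.73, adjusted p = 6.83e-05), TSC1, a brake on mTOR (-0.58, adjusted p = 6.41e-04), and PDPK1, the kinase that activates AKT (-0.55, adjusted p = 0.00838), fell. IGF2BP2, an RNA-binding protein named for IGF2 mRNA, fell in Stage 2 against Stage 1 (-0.27, adjusted p = 0.00242), in Stage 3+DMSO against Stage 2 (-0.24, adjusted p = 0.00528) and with KPT against DMSO (-0.34, adjusted p = 2.17e-04).

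Stage 3+DMSO against Stage 1 compares the DMSO-treated last stage with the first. The largest change among the pathway genes was that of GHR (2.47, adjusted p = 4.12e-07), which was higher while IGF1 was lower. IGF2R (0.92, adjusted p = 3.18e-06), PAPPA (0.90, adjusted p = 3.74e-04) and HTRA1 (0.82, adjusted p = 1.43e-06) were also higher, as were IRS1 (0.88, adjusted p = 6.39e-06), SOCS2 (0.91, adjusted p = 7.03e-04), FOXO3 (0.80, adjusted p = 1.22e-04) and FOXO1 (0.73, adjusted p = 1.30e-04). IGF2BP2 (-0.51, adjusted p = 1.55e-05), EIF4EBP1 (-0.48, adjusted p = 9.65e-04) and ADAM12 (-0.30, adjusted p = 0.00661) were lower. STC2 did not pass the test (0.17, adjusted p = 0.138).

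Likeness of pattern was read as Pearson's r of log2(RPKM + 1) over the 12 libraries, which share 4 groups, and is given as a description. IGF1 and IGFBP5 had r = 0.949, and GGCX, which encodes the vitamin K-dependent gamma-carboxylase, was among the 3 most alike genes of both, at 0.967 with IGF1 and 0.961 with IGFBP5. The gene most like IGF1 was SLC5A3, a myo-inositol transporter (0.974). The gene most like IGFBP4 was SERPING1, the C1 inhibitor (0.978), and IGFBP6 was most like the ribosomal protein genes RPL4 and RPL10A (0.979 each). IGFBP6 ran against IGF1, at r = -0.818.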

How the data were processed

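The authors deposited RPKM values per gene and per exon row for 12 libraries made with a stranded mRNA kit, per the labels' protocols. The submitters' processing notes name TopHat2 2.1.0, and the sources used here name no counter, annotation or genome build. Strand use in counting is likewise not given, so reads of overlapping or antisense genes could be split either way. Multiplying RPKM by exon length and library total gave whole reads for 100% of values (within 0.0001), which set the library totals and read counts quoted. Recovered reads summed over genes were 1.751 to 1.813 times the library total in every library, so gene read counts and totals are not in the same unit or reads were counted more than once; which was not tested.

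All 12 libraries entered a single limma 3.58.1 fit (R 4.3.3) of log2(RPKM + 1), with a coefficient per group and a trend, over 13046 genes with RPKM of at least 1 in at least 3 libraries. Comparisons were contrasts, called at a Benjamini-Hochberg adjusted p under 0.05. The pseudocount of 1 understates changes of low genes. Exon use was tested with limma's exon-within-gene test, and shares with exact permutation tests. The code was tested on simulated data.

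The members and gene lists were chosen with earlier results of these data known. All members found are named. From the pathway list, the text usually names up to 3 called genes per role with the largest change. It also names genes acting directly on ligands or binding proteins. This was not followed throughout. RHEB in Stage 3+DMSO against Stage 2 (0.40) and INSR in Stage 3+DMSO against Stage 1 (0.71) were called but are left out above. A symbol with several gene IDs was read from the ID of highest mean RPKM. Alternatives covered the pseudocount, filter, scaling, trend, fit, replicate block, recovered reads and each library left out. The main fit did not pair samples by replicate number.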

Additional observations from a re-analysis of the deposited data

How the results depend on the processing

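The 28 member fold changes were recomputed under 15 or 16 alternatives each, 444 values in all. Of these, 407 kept direction and call, 24 lost the call, 5 gained it and 8 changed sign; all 192 recomputed counts of called genes stayed within 1.5 times. The calls of IGF1 and IGFBP5 in Stage 2 against Stage 1, Stage 3+DMSO against Stage 2 and Stage 3+KPT against Stage 3+DMSO held in all 16. IGFBP7 in Stage 3+KPT against Stage 3+DMSO, called at -0.20, changed sign with quantile normalization (0.048); the other member sign changes were in values that had not been called. With quantile normalization IGF1R was 0.0137 in Stage 2 against Stage 1 and -0.18 in Stage 3+DMSO against Stage 2 (-0.16 with median-ratio rescaling). With each library left out in turn, IGF1R in Stage 3+DMSO against Stage 2 ranged over -0.037 to 0.0451, turning without Stage 2 replicate 3 and, at -0.0016, without Stage 3+DMSO replicate 1. IGFBP4 ranged over -0.0104 to 0.188 in Stage 3+DMSO against Stage 1 and -0.16 to 0.0342 in the KPT comparison, turning without Stage 3+DMSO replicate 1. The cause was not tested.

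The 90-base IGF1 exon was tested under alternatives chosen after seeing the data, among them a fit with only non-overlapping IGF1 rows. Its calls in Stage 3+DMSO against Stage 2 (-1.43 to -1.96) and with KPT (2.23 to 2.75) held in all of them, while that in Stage 2 against Stage 1 was lost in 5 of 9 (0.66 to 1.75). In Stage 3+DMSO against Stage 1, not called, it ranged over -0.97 to 0.13 with each library left out, turning without Stage 1 replicate 1. Apart from those of IGFALS, IGF2BP3 and PTPN1, the pathway calls printed in the report held in all 15 or 16 alternatives run. The printed calls are a selection of those made, so this does not speak for the whole pathway list. In Stage 2 against Stage 1, IGF2BP3 (0.76, adjusted p = 0.0349 in limma) kept its call in 10 of 15 alternatives. PTPN1 (-0.19, adjusted p = 0.0408 in limma) kept its call there in 6 of 16. A minimum RPKM of 5 removed IGFBP3, so that result has no value there.

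Deviations of same-numbered samples from their group means correlated at -0.131 to 0.0748, and those of different-numbered samples at -0.161 to 0.227. Such correlations cannot decide whether same-numbered samples were paired. With the replicate number as a block, 5, 5, 3 and 4 members were called in the 4 comparisons, as without it, and 5133 genes instead of 5308 in Stage 2 against Stage 1. IGFBP3 is limited by low read counts, with 8 to 74 reads per library over 808 bases of exon.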
